A study of Mus musculus with 8 samples.

Results

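Immunoglobulin genes were followed through 8 RNA-seq libraries of mouse regulatory T (Treg) cells. They comprised every row whose symbol begins with Ighv, Ighm, Ighd, Ighg, Igha, Ighe, Igkv, Igkc, Igkj, Iglv or Iglc and whose mean over the 8 libraries was at least 10 normalized counts. Of 384 such rows at any level, 60 reached that mean, out of 52459 rows in the table. They were selected on their measured level, which is therefore not a result. A normalized count is the number of reads on a gene divided by 1 size factor for its library, so that 1 read was worth 0.759 to 1.48 normalized counts.

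The study asked how the calcium sensors STIM1 and STIM2, which open CRAC channels when calcium stores run low, shape transcription in Treg cells. All cells were CD4+CD25hi Treg cells sorted by flow cytometry from spleen and lymph nodes of healthy, female, heterozygous C57BL/6 mice carrying Stim1 fl/fl, Stim2 fl/fl and Foxp3-YFPcre, in which Cre is driven by the X-linked Foxp3 promoter, and several mice were pooled for each sample. WT cells were the YFPcre- cells and Stim1/2-deficient cells, labelled DKO, the YFPcre+ cells of such mice, whose age is not given in the sources used here. Each genotype was sequenced unstimulated and after 16 h on 1 µg/ml plate-bound anti-CD3/CD28, with 2 libraries for each of the 4 groups (replicates 3 and 4 in unstimulated WT, 1 and 2 in the other groups).

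In B cells, V, D and J segments are joined into an antibody gene, and the joined V region is transcribed together with a constant region. Ighm (IgM) and Ighd (IgD) mark cells that have not switched class, whereas Ighg, Igha and Ighe encode the constant regions of IgG, IgA and IgE, and Igkc and Iglc those of the kappa and lambda light chains. Treg cells belong to the T lineage and use T cell receptor genes instead, although transcripts of the unrearranged Ighm region are known from T cells.

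The 60 rows were Ighm, Ighd, the 6 switched constant genes (Ighg1, Ighg2b, Ighg2c, Ighg3, Igha and Ighe), 24 of 183 Ighv rows, Igkc, 20 of 160 Igkv rows, Igkj2 out of 5 Igkj rows, 3 of 4 Iglc rows and all 3 Iglv rows. None of the 20 D segment rows reached the mean. Among the 324 rows left out, 142 had no read in any library. Ighv2-9-1, the lowest row kept, had a mean of 10.2, and Igkv19-93, just below the limit, had 9.58.

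The heavy-chain genes lie on chromosome 12, the kappa genes on chromosome 6 and the lambda genes on chromosome 16. In the RefSeq annotation of GRCm38, Ighm spans 113418826 to 113422730 on chromosome 12, Igkc spans 70726435 to 70726754 on chromosome 6 and Iglc1 spans 19061752 to 19062071 on chromosome 16. All 3 are annotated as constant-region segments of their loci, and the V rows as V segments, save Ighv7-1, Ighv7-3 and Igkv14-126, which are annotated as V segment pseudogenes. Neighbouring V segments can be close copies, which limits what a short read can tell apart. Both pairs below are printed for that reason, from GENCODE vM1 transcripts, with capitals at the bases where the members of a pair differ.

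Igkv1-110: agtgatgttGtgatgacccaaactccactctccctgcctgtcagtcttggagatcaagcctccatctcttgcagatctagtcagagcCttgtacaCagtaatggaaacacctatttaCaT

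Igkv1-117: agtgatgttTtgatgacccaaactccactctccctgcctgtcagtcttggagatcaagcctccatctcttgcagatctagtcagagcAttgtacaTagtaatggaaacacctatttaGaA

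Iglv1: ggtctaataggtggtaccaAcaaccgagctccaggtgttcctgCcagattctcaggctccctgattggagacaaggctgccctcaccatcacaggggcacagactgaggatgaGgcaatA

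Iglv2: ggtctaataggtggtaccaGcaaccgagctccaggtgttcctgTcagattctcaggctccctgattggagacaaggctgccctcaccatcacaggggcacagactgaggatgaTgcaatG

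Each stretch is 120 bases long, 5′ to 3′. The Igkv pair differed at 5 bases of it and at 10 of 359 aligned bases, which is 97.2% identity, and the Iglv pair at 4 bases of its stretch and at 10 of 348 aligned bases, or 97.1% identity. At the read length of 50 nt, 44.2% of the windows in Igkv1-110 and 25.2% of those in Iglv1 occurred also in another gene. Of the 34 members with a transcript in that annotation, 23 shared at least 1 such window with another gene, so the split of reads between close V segments is uncertain. Igkc and Ighm shared none.

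The targeted genes were checked first. In unstimulated cells Stim1 was at 1139 and 1377 normalized counts in WT and at 1538 and 1868 in those labelled DKO, and after stimulation it had 645 and 673 in WT and 552 and 642 in DKO. Neither Stim1 (limma adjusted p = 0.236 unstimulated, 0.807 stimulated) nor Stim2 (0.721 and 0.827) was called lower at the level of the whole gene, so that genotypes below are those of the labels. The paper reports loss of both transcripts by RT-PCR in Treg cells of male mice. It also reports that YFP+ Treg cells of female mice lacked store-operated calcium entry. Whole-gene counts do not show which exons were read, so they do not test that loss. The libraries held 11851853 to 16306540 reads. The unstimulated libraries carry sequencing lane L004 in their labels and the stimulated ones L001, so lane and stimulation cannot be told apart.

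Immunoglobulin transcripts differed widely between single libraries, and replicates of 1 group could lie further apart than the genotypes. Ighm is described apart. The summed level of the other 59 rows was 789 and 1820 normalized counts in the unstimulated WT libraries 3 and 4, and 19276 and 5607 in the unstimulated DKO libraries 1 and 2. After stimulation it was 3927 and 830 in the WT libraries 1 and 2, and 6357 and 1266 in the DKO libraries 1 and 2. The unstimulated means were 1304 ± 729 in WT and 12441 ± 9666 in DKO (SD, n = 2 each). The unstimulated groups did not overlap, whereas the stimulated groups did, with library 1 of both genotypes high and library 2 of both low. As a share of all reads in the library, these 59 rows ranged from 0.448 per 10000 in WT library 3 to 12.4 per 10000 in DKO library 1, both unstimulated.

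**Figure D1:**
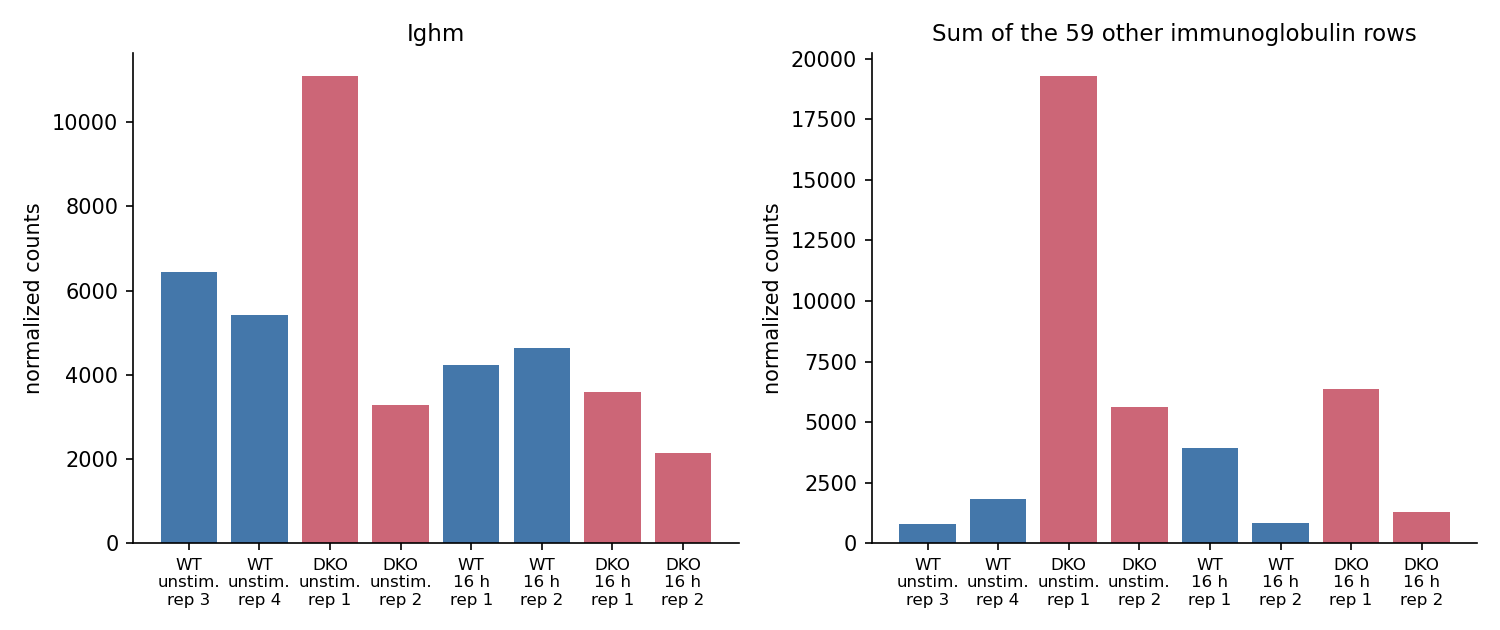
Normalized counts (y axes, from 0) of Ighm (left) and of the other 59 immunoglobulin rows summed (right) in each of the 8 libraries (x axes, blue WT, red DKO, 1 bar for each library). Unstimulated DKO replicate 1 is the highest in both panels, at 11092 and 19276, and the right panel shows the gap between replicates 1 and 2 in both stimulated groups.

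Ighm, the constant region of IgM, followed a pattern of its own. Its level was 6446 and 5414 normalized counts in unstimulated WT cells and 11092 and 3279 in unstimulated DKO cells, so that the WT values lay between the DKO values. The fitted difference was 0.03 on the log2 scale (SE 0.45, limma adjusted p = 0.978). Without DKO library 1 it was -0.85 (adjusted p = 0.107), and without WT library 4 it was -0.10, so its direction depended on single libraries. In stimulated cells Ighm had 4234 and 4636 in WT and 3596 and 2147 in DKO. Both DKO libraries then lay below both WT libraries, as did 23.1% of all genes tested, and the difference of -0.67 (SE 0.45) was not called (adjusted p = 0.573).

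The spread of Ighm over the 8 libraries was narrow beside that of the other rows. Ighm varied from 2147 to 11092 and Igkc, the kappa constant region, from 187 to 5051. The ratio of Ighm to Igkc was 34.5 and 13.9 in unstimulated WT, 2.20 and 2.20 in unstimulated DKO, 3.59 and 19.8 in stimulated WT, and 1.96 and 7.18 in stimulated DKO. These ratios are not per length and serve only to compare libraries. Ighm made up 88.2% and 73.2% of all immunoglobulin counts in unstimulated WT and 34.3% and 34.7% in unstimulated DKO. It made up 49.9% and 83.7% in stimulated WT and 33.8% and 59.3% in stimulated DKO. The share of Ighm was thus high in the 4 libraries in which the other rows were low. Since the other rows are part of its divisor, this is no separate result on Ighm.

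Igkc had 187 and 389 normalized counts in unstimulated WT and 5051 and 1492 in unstimulated DKO. The fitted difference was 3.34 (SE 0.92) on the log2 scale and missed the threshold (limma adjusted p = 0.070), and DESeq2 called it. In stimulated cells Igkc had 1178 and 235 in WT and 1833 and 299 in DKO, so the groups overlapped (log2 difference 0.49, adjusted p = 0.866). Both stimulated library 1 values exceeded both library 2 values.

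Ighd, which is transcribed with Ighm in unswitched B cells, overlapped between genotypes in both states. It had 193 and 236 in unstimulated WT and 1096 and 199 in unstimulated DKO, and only DKO library 1 stood above the rest. The log2 difference was 1.13 (SE 1.08, adjusted p = 0.587) and became -0.10 without that library. In stimulated cells Ighd had 630 and 189 in WT and 657 and 49.8 in DKO.

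The summed level of the switched heavy-chain genes in unstimulated cells was 256 and 867 normalized counts in WT and 8122 and 2588 in DKO. The ratio of that sum to Ighd, again not per length, was 1.32 and 3.67 in WT and 7.41 and 13.0 in DKO. In stimulated cells the sum was 1216 and 223 in WT and 2147 and 412 in DKO, with ratios of 1.93 and 1.18 in WT and 3.27 and 8.27 in DKO. The 4 DKO ratios did not all exceed the 4 WT ratios, since stimulated DKO library 1 lay below unstimulated WT library 4.

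Ighg2c, which encodes the IgG2c constant region of C57BL/6 mice, had 91.7 and 79.8 in unstimulated WT and 2377 and 861 in unstimulated DKO. It was called higher in DKO (log2 difference 4.05, SE 0.72, limma adjusted p = 0.017), and the call was lost when DKO library 1 (3.32), WT library 3 (4.15) or WT library 4 (3.95) left the fit, with differences of like size. With DKO library 1 out of the filter as well it was called. Ighg2b, the IgG2b constant region, had 8.63 and 139 in WT and 2009 and 748 in DKO (5.06, SE 1.02, adjusted p = 0.025). Leaving out DKO library 1 gave 4.35 and leaving out WT library 3 gave 3.13, neither of which was called. In stimulated cells Ighg2b had 35.9 and 42.5 in WT and 692 and 222 in DKO, and it was the switched gene whose stimulated groups did not overlap (3.30, adjusted p = 0.174).

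Ighe, the IgE constant region, had no read in either unstimulated WT library and 126 and 111 normalized counts in the DKO libraries. A count of 0 allows up to 3 reads, which is at most 4.43 normalized counts in a WT library. Ighe was thus at least 26.7-fold higher in the mean of its DKO libraries (limma adjusted p = 0.016). It reached the mean of 10 through these DKO libraries, so it had to differ, and both values are a description. Its DKO libraries agreed more closely than those of the other switched genes. In stimulated cells it was near the floor everywhere, with 3.90 and 0 in WT and 4.76 and 0 in DKO.

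Ighg1, Igha and Ighg3 were not called. Ighg1 had 39.9 and 194 in unstimulated WT and 1248 and 386 in unstimulated DKO (adjusted p = 0.575). In stimulated cells it had 319 and 411 in library 1 of WT and DKO, and no read in library 2 of either. Igha had 91.7 and 38.4 in unstimulated WT and 1727 and 266 in DKO (adjusted p = 0.221). Ighg3 had 23.7 and 417 in unstimulated WT and 635 and 216 in DKO, so that its groups overlapped. Without WT library 3 its log2 difference went from 1.87 to -0.17.

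**Figure D2:**
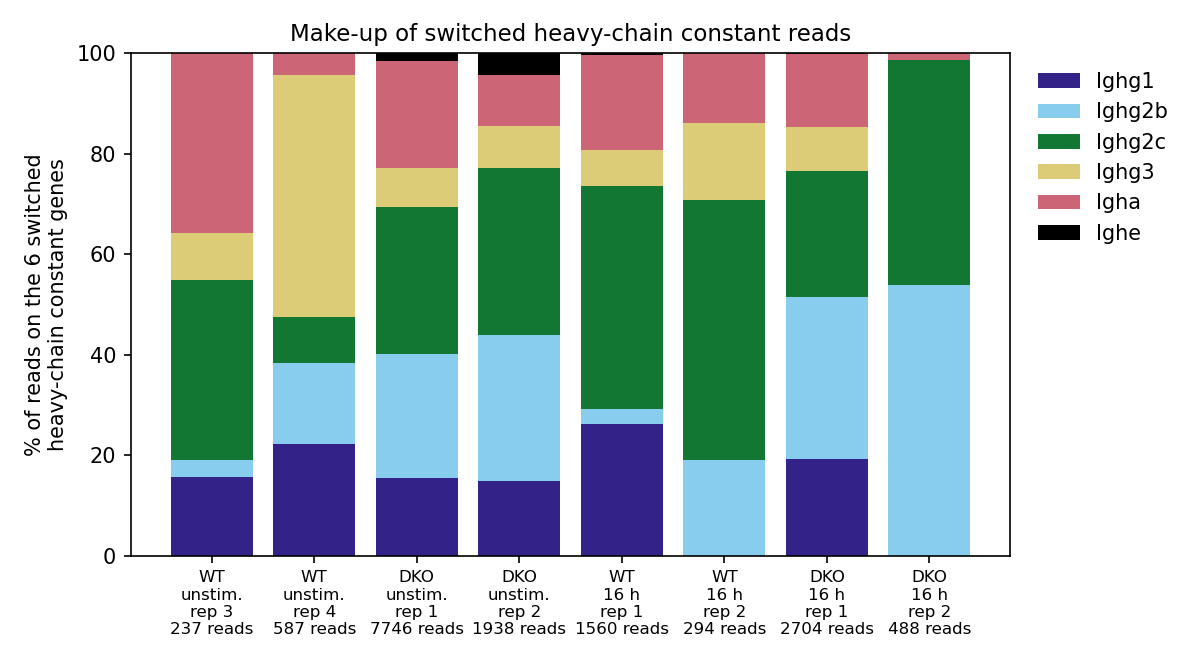
Share of reads (y axis, percent) on each of the 6 switched heavy-chain constant genes in each library (x axis, with the number of switched reads below each bar). The make-up differs between replicates of 1 group, as with Ighg3 in the unstimulated WT libraries (9.28% and 48.0%) and Ighg1 in the stimulated libraries (26.2% and 0% in WT, 19.2% and 0% in DKO).

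The isotypes did not keep 1 ratio between libraries. Among switched reads, Ighg3 took 48.0% in unstimulated WT library 4 (Wilson 95% interval 44.0 to 52.1%, 587 reads) and 9.28% in WT library 3 (6.21 to 13.7%, 237 reads). Ighg2b took 53.9% in stimulated DKO library 2 (49.5 to 58.3%, 488 reads), where Ighg2b and Ighg2c made up nearly all switched reads. Ighg1 had 0 of 488 reads there and 0 of 294 in stimulated WT library 2. The unstimulated DKO libraries were more alike, with Ighg2c at 29.3% and 33.3% and Ighg1 at 15.4% and 14.9%, but Igha at 21.3% and 10.3%. These intervals cover counting error only.

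Of the lambda constant genes, Iglc3 was called higher in unstimulated DKO, with 4.32 and 1.48 in WT and 109 and 29.4 in DKO (log2 difference 3.99, SE 0.98, limma adjusted p = 0.048). That call was lost under 12 of 17 alternatives. Iglc1 had 29.1 and 54.7 in WT and 608 and 88.2 in DKO, and Iglc2 had 24.8 and 13.3 in WT and 156 and 45.4 in DKO. Neither was called (adjusted p = 0.150 and 0.257). The pseudogene Iglc4 stayed at or below 5.34 in every library. Kappa took 76.2% (70.3 to 81.3%) and 84.8% (80.4 to 88.4%) of light-chain constant reads in unstimulated WT, and 85.2% (84.2 to 86.1%) and 89.9% (88.1 to 91.4%) in unstimulated DKO. It took 84.4% and 84.4% in stimulated WT, and 78.6% and 73.4% in stimulated DKO. Both stimulated DKO libraries thus had the lower kappa share, while 2 against 2 libraries cannot give a permutation p below 0.333.

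The V rows showed which antibody genes were read in each library. Summed Ighv rows, members or not, had 71.2 and 216 normalized counts in unstimulated WT and 3015 and 847 in unstimulated DKO. They had 483 and 106 in stimulated WT and 935 and 400 in stimulated DKO. Igkv rows had 58.3 and 170 in unstimulated WT and 2547 and 735 in unstimulated DKO, then 448 and 89.6 in stimulated WT and 792 and 171 in stimulated DKO. Reads fell on 20 and 34 Ighv rows in unstimulated WT and on 95 and 66 in unstimulated DKO. These rested on 66 and 146 Ighv reads in WT and on 2875 and 634 in DKO.

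A single V row took a large share of the reads in several of the low libraries. Ighv1-9 took 36.1% (Wilson 95% interval 31.9 to 40.5%) of 474 Ighv reads in stimulated DKO library 2, and Igkv3-4 took 39.9% (33.4 to 46.8%) of 203 Igkv reads in the same library. Igkv7-33 took 40.7% (32.2 to 49.7%) of 118 Igkv reads in stimulated WT library 2, where Ighv6-3 led the Ighv rows with 23.6%. In unstimulated WT, Ighv1-59 took 31.5% of 146 reads in library 4 and Ighv7-3, an annotated pseudogene, took 13.6% of 66 reads in library 3, while Igkv4-61 and Igkv12-38 led the Igkv rows with 21.7% and 22.2%. These 4 libraries were led by different rows.

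The 4 libraries with more immunoglobulin reads were spread over more rows. Their leading Ighv rows were Ighv1-9 in unstimulated DKO library 1 (12.3%) and stimulated WT library 1 (14.5%), and Ighv3-6 in unstimulated DKO library 2 (15.1%) and stimulated DKO library 1 (12.1%). Their leading Igkv rows took 7.45% (Igkv1-135), 8.0% (Igkv1-110), 10.6% (Igkv12-44) and 10.9% (Igkv1-110 again). The effective number of Ighv rows, which is the number of equally used rows that would give the same evenness, was 22.1 and 20.6 in unstimulated DKO, 21.0 in stimulated WT library 1 and 22.5 in stimulated DKO library 1. It was 11.8, 7.77, 10.2 and 5.44 in the other 4. For Igkv the former ranged from 18.6 to 32.5 and the latter from 4.60 to 10.8. These numbers were not brought to 1 depth, and stimulated DKO library 2 had 474 Ighv reads and an effective number of 5.44, beside 634 reads and 20.6 in unstimulated DKO library 2.

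Among the most abundant V rows, Ighv1-9 had 8.63 and 11.8 in unstimulated WT, 372 and 30.7 in unstimulated DKO, 70.1 and 6.07 in stimulated WT, and 71.5 and 144 in stimulated DKO. It was the V row of highest mean among the Ighv rows and was not called (limma adjusted p = 0.138 unstimulated, 0.456 stimulated). Ighv3-6 had 8.63 and 1.48 in unstimulated WT and 358 and 128 in unstimulated DKO, and in stimulated cells it had 28.1 and 114 in library 1 of WT and DKO and no read in library 2 of either. Ighv2-6 rested on 2 libraries, with 233 in unstimulated DKO library 1 and 81.8 in stimulated DKO library 1, and at most 0.78 in the other 6.

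Igkv3-4 had 3.24 and 1.48 in unstimulated WT, 148 and 32.1 in unstimulated DKO, 34.3 and 0 in stimulated WT, and 12.7 and 68.4 in stimulated DKO. Igkv1-135 had its highest value, 190, in unstimulated DKO library 1, and Igkv5-39 had 175 there and 1.34 in DKO library 2. Igkv6-15 had 1.08 and 0 in unstimulated WT, 101 and 17.4 in unstimulated DKO, 31.2 and 0 in stimulated WT, and 27.8 and 0.84 in stimulated DKO. The 3 lambda V rows were Iglv1, with 10.8 and 14.8 in unstimulated WT and 207 and 40.1 in DKO, Iglv2, with 8.63 and 8.86 in WT and 60.8 and 4.01 in DKO, and Iglv3. Iglv3 had 0 and 1.48 in WT and 102 and 54.8 in DKO and was called higher (limma adjusted p = 0.015). It reached the mean of 10 through DKO libraries, so that call is a description. Iglv3 had no shared window, unlike Iglv1 and Iglv2.

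The other V rows called higher in unstimulated DKO were Ighv1-19, Ighv1-81, Ighv2-2, Ighv6-3, Ighv10-3 and Igkv3-10. Ighv1-19 (51.4 and 45.4 in DKO), Ighv1-81 (89.1 and 46.7) and Ighv2-2 (109 and 36.1) had no read in either WT library. With WT set to 3 reads, the means of their DKO libraries were at least 10.9-fold, 15.3-fold and 16.4-fold higher. These bounds do not cover the spread between the DKO libraries. All 3 rows reached the mean of 10 through DKO libraries, so calls and bounds are a description here. Ighv10-3 had 1.08 and 1.48 in WT and 66.1 and 48.1 in DKO, and Igkv3-10 had 0 and 1.48 in WT and 81.8 and 52.1 in DKO. Both likewise reached the mean of 10 through DKO libraries, so their calls are a description too. Ighv6-3 had 5.40 and 1.48 in WT and 33.6 and 25.4 in DKO (log2 difference 2.92, SE 0.64, adjusted p = 0.033). The calls of Ighv1-81, Igkv3-10 and Ighv6-3 were lost under 13, 11 and 9 of 17 alternatives, and those of Ighv1-19, Ighv2-2 and Ighv10-3 under 6 of 16, 4 of 17 and 3 of 17. Of the windows in Igkv3-10, 51.1% occurred also in other genes.

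**Figure D3:**
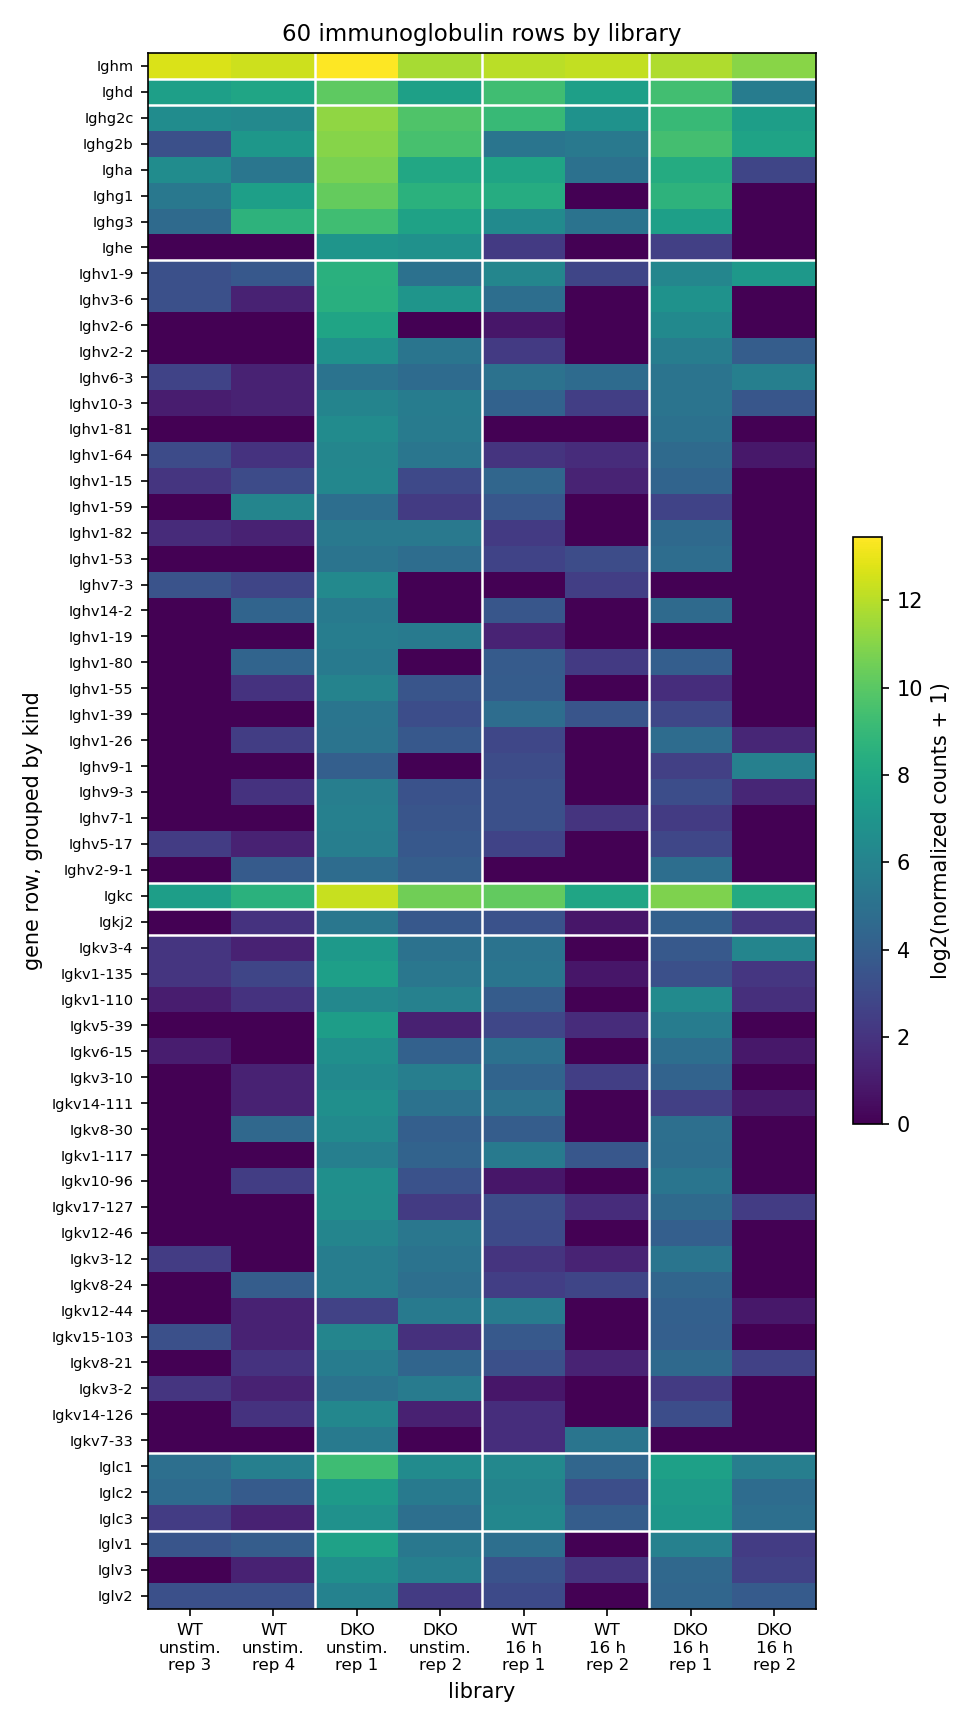
Levels of the 60 rows (y axis, grouped by kind and ordered by mean within a kind) in the 8 libraries (x axis), as log2(normalized counts + 1) on the colour scale. The unstimulated DKO libraries and library 1 of both stimulated groups are bright across most rows, with 48 to 60 rows above 3 reads, and the other 4 libraries are dark, with 21 to 23, with Ighm, Ighd, Igkc, Ighg2c and some single rows above the rest.

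Over all 60 rows, 11 were called higher and 0 lower in unstimulated DKO (limma adjusted p under 0.05 and more than 1.5-fold), beside 1.38% of all 15419 genes tested called higher and 3.35% called lower. No row was lower at an unadjusted limma p under 0.05 either, nor called lower by edgeR or DESeq2. Both DKO libraries lay above both WT libraries for 45 rows, or 75.0%, and below them for 0, beside 26.5% and 27.1% of all genes. The 45 were 17 Ighv, 16 Igkv, 5 switched, 3 Iglc and 2 Iglv rows with Igkc and Igkj2. The median log2 difference of the 59 rows without Ighm was 3.65, and 3.07 when the 31 rows with WT at or under 3 reads were set to their bound, beside -0.01 over all genes. Nothing is read from these counts: 50 of the 60 rows had their highest value in unstimulated DKO library 1, and 25 would have missed the mean of 10 without it, so such rows passed the selection through the group in which they were high.

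Both unstimulated DKO libraries lay above WT, in unequal measure. Without DKO library 1, the fold between the summed 59 rows in DKO and WT went from 9.54 to 4.30, and leaving out any other single library of the contrast gave 6.84 to 15.8. With that library removed from the selection as well as from the fit, Ighg2c, Ighe, Ighv10-3 and Iglv3 were called, 4 rows in all. Leaving a library out of the fit alone gave 0 calls without WT library 3, 1 without WT library 4, 2 without DKO library 1 and 15 without DKO library 2. Leaving out a stimulated library, which only enters the shared spread, gave 5 to 23 calls. DKO library 2 alone lay above both WT libraries in 45 of the 60 rows, as it did in 42.8% of all genes. Even without DKO library 1, Ighe and Iglv3 reached the mean of 10 only through DKO library 2 (111 and 54.8), so their calls are a description.

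In stimulated cells, 0 of the 60 rows were called in either direction, beside 0.162% of all genes called higher and 0.11% called lower. At an unadjusted limma p under 0.05 and more than 1.5-fold, 2 rows were higher and 1 lower. DESeq2 called 1 row higher and edgeR 0. Both DKO libraries lay above both WT libraries for 5 rows (Ighg2b, Ighv1-9, Ighv2-2, Ighv6-3 and Iglv2) and below them for 3 (Ighm, Ighv1-39 and Igkv7-33), beside 24.3% and 23.1% of all genes. The median log2 difference of the 59 rows was 0.54, and the fold of their summed level was 1.60. That fold was 0.532 without DKO library 1, 0.971 without WT library 2 and 4.59 without WT library 1.

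In stimulated cells, library 1 lay above library 2 in both genotypes. Of the 59 rows, 52 were higher in library 1 than in library 2 in WT, and 52 were so in DKO, beside 48.6% and 49.4% of all genes tested. The ratio of the summed level in library 1 to that in library 2 was 4.73 in WT and 5.02 in DKO, while that of Ighm was 0.913 and 1.68. Both library 1 values exceeded both library 2 values in 44 of the 60 rows, as they did in 14.3% of all genes. In the unstimulated groups the same ratio was 3.44 between the DKO libraries, with Ighm at 3.38, and 0.433 between WT libraries 3 and 4. Whether libraries of the same number share mice or a preparation is not given in the sources used here.

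The difference between the genotype effects of stimulated and unstimulated cells was tested as an interaction. It was called for 0 of the 60 rows, as for 0% of all genes. At an unadjusted limma p under 0.05 and more than 1.5-fold, 17 rows had a lower genotype difference (DKO minus WT) in stimulated than in unstimulated cells and 0 a higher one. Of all 15419 genes, 543 and 704 did so, and DESeq2 called 2 rows and edgeR 0. Unstimulated DKO library 1 held the highest value of 50 of the 60 rows. The selection thus favoured the lower direction, and nothing is read from these counts.

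A sort on CD4 and CD25 would leave out B cells and plasma cells, whose genes are given here beside the immunoglobulin rows. The 16 B cell markers summed to 1378 and 1542 normalized counts in unstimulated WT and 7165 and 2882 in unstimulated DKO. They summed to 1909 and 1041 in stimulated WT and 3145 and 2138 in stimulated DKO. The 4 libraries rich in immunoglobulin reads were the 3 highest and the fifth by this sum. Ralgps2 weighed heavily on that rank, with 457 to 1794 over the libraries and 1526 of the 2138 in stimulated DKO library 2. Of 15 markers tested, limma called 2 higher in unstimulated DKO and 0 in stimulated DKO, beside 1.38% and 0.162% of all genes. Cr2, complement receptor 2, was among those called and had 35.6 and 39.9 in unstimulated WT, 606 and 176 in DKO, 63.1 and 38.0 in stimulated WT, and 67.5 and 49.8 in DKO. Pax5, which holds the identity of B cells, ranged from 14.4 to 590 and was 0 in no library.

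The defining genes of plasma cells were split. Jchain, the joining chain of secreted IgM and IgA, had 38.9 and 72.4 in unstimulated WT and 1784 and 471 in DKO (log2 difference 4.09, SE 0.86, limma adjusted p = 0.030). In stimulated cells it had 224 and 34.9 in WT and 433 and 144 in DKO, which followed the order of Igkc within each group. Mzb1, a chaperone of antibody assembly, had 1.08 and 1.48 in unstimulated WT and 51.4 and 20.03 in DKO. It was not called (log2 difference 3.87, limma adjusted p = 0.0799). In stimulated cells Mzb1 had 26.5 and 1.52 in WT and 50.03 and 14.35 in DKO, and it followed the order of Jchain within each group. Tnfrsf17, the receptor BCMA, had 3.15 and 5.34 in the unstimulated DKO libraries, near the floor, and no read in the other 6. Sdc1 (CD138) ranged from 0 in unstimulated DKO library 2 to 56.6 in stimulated DKO library 2. The 9 plasma cell markers summed to 4981 and 4226 in unstimulated WT and 3784 and 3074 in unstimulated DKO, and to 4394 to 5294 in the stimulated libraries. That sum was mostly Xbp1, Prdm1 and Tnfrsf13b, and Prdm1, which Treg cells also use, was called lower in unstimulated DKO.

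The 14 markers of red pulp macrophages and other myeloid cells summed to 338 and 355 in unstimulated WT and 12593 and 1953 in unstimulated DKO, and 10 of the 14 were called higher, beside 1.38% of all genes. In the stimulated libraries they summed to 236 to 356, limma called 0, and C1qa, Mrc1 and C6 had no read, although Lyz2 had 98.2 and 37.2 in WT and 144 and 184 in DKO. These sums were low, while stimulated library 1 of both genotypes held high immunoglobulin levels. The 8 Treg cell markers summed to 96058 and 89150 in unstimulated WT and 43459 and 50496 in unstimulated DKO, and to 97021, 114983, 70118 and 88175 in stimulated WT 1, WT 2, DKO 1 and DKO 2. Ctla4 (log2 difference -1.79) and Ikzf2 (-1.13) were called lower in unstimulated DKO. Foxp3 (-0.98) and Il2ra (-0.65) were not called, nor were Cd4 (-0.20), Cd3e (-0.12), Cd3d (-0.36) and Cd3g (-0.36), so the sum did not stand for every marker alike. The part of other cells, or of depth and lane, in the immunoglobulin levels was not tested, and in bulk RNA a larger number of cells of 1 type and more RNA for each such cell cannot be told apart.

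**Figure D4:**
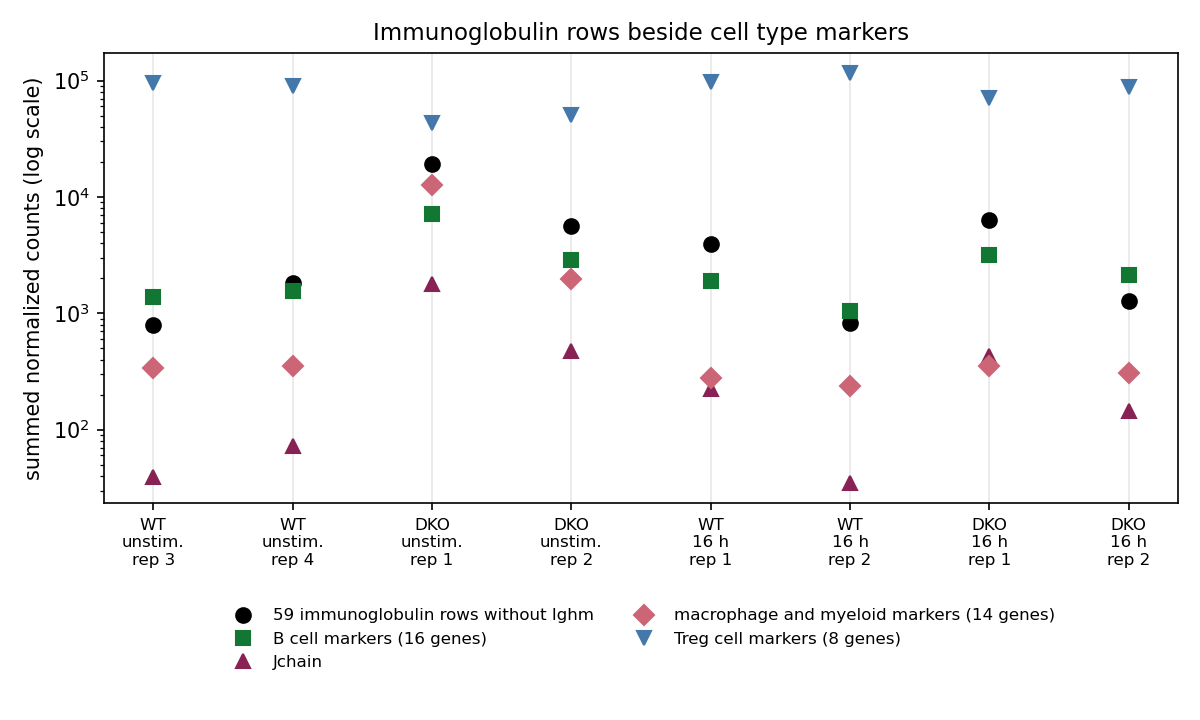
Summed normalized counts (y axis, log scale) in the 8 libraries (x axis) of the 59 immunoglobulin rows without Ighm and of markers of B cells, of macrophages and myeloid cells and of Treg cells, with Jchain alone. Jchain and the immunoglobulin sum are high in both unstimulated DKO libraries and in library 1 of both stimulated groups, while the macrophage and myeloid sum is high in the unstimulated DKO libraries, at 12593 and 1953, and 236 to 356 in all stimulated ones.

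Genes that serve antibody assembly and signalling were counted as lists. Among 16 genes of the B cell receptor complex and its proximal signalling, 2 were called higher in unstimulated DKO, beside 1.38% of all genes, with a median log2 difference of 1.94 over the list and -0.01 over all genes. Cd79a and Cd79b, which carry the signal of surface IgM, were not called (adjusted p = 0.120 and 0.796). Cd79a had 8.63 and 13.3 in unstimulated WT and 95.4 and 40.1 in DKO. Of 11 genes for receptor assembly and class switching, 4 reached the mean of 10, and Ung, a uracil glycosylase, was called lower. Igll1 and Vpreb2, parts of the surrogate light chain, had no read. Of 12 antibody receptor and transport genes, 7 were tested, and Fcgr2b, the inhibitory IgG receptor, came closest to a call in unstimulated cells (limma adjusted p = 0.070). Fcmr, the receptor for IgM, had 19.4 and 45.8 in unstimulated WT and 365 and 82.8 in DKO.

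The genes whose log2 levels followed the summed 59 rows most closely over the 8 libraries were Siglecg (Pearson r = 0.99), Ebf1 (0.98), Pla2g7 (0.98), Slpi (0.97) and Nfam1 (0.97). Ebf1 is a transcription factor of the B lineage and Siglecg a B cell lectin, while the cell types that express Pla2g7, Slpi and Nfam1 were not examined. The r of Ighm with the same sum was 0.34, and the genes closest to Ighm were Anxa1 (0.97), Grn (0.96), Ctsb (0.96), Tenm4 (0.95) and Ppp3cc (0.94). These 2 lists of 5 shared no gene. The values are a description of 8 points that share their libraries and carry no test.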

How the data were processed

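Bulk RNA-seq libraries of sorted Treg cells, 8 in all, fell into 4 groups of 2 by their labels. The deposited signal values are normalized counts, which the authors made by dividing reads on a gene by a size factor of the library and rounding. They are multiples of what 1 read is worth in all libraries (within 0.01), so whole reads were recovered. The methods describe Bowtie alignment to NCBIM37 and HTSeq counting with DESeq2, whereas the submitters' processing notes name bcl2fastq 1.8.4, STAR 2.7, DESeq2 and mm10. All 384 immunoglobulin symbols occur in the RefSeq annotation of GRCm38 and 151 in GENCODE vM1, so positions are given on GRCm38. The strand setting of the counting is not given in the sources used here, and library kits named by the labels and the methods differ.

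To each value 1 was added before log2, and limma 3.58.1 (R 4.3.3, trend) was run over 15419 genes whose mean reached 10, all 4 groups sharing 1 spread. Adjusted p-values are Benjamini-Hochberg over all genes within a contrast. A call required more than 1.5-fold and an adjusted p under 0.05. A log2 difference on this scale understates that of low genes. Folds of a group mean against a group without reads were bounded by a floor of 3 reads for each library. The bounded median treats groups at or under 3 reads in the same way. The fit was tested on simulated data in which genes varied independently of each other. That test does not cover rows that rise and fall together between replicates. Shares have Wilson 95% intervals. Alternatives were other pseudocounts, filters and scalings, edgeR 4.0.16 and DESeq2 1.42.0 on recovered reads, each library left out, the 4 libraries of a contrast alone, and a term for the replicate number. Windows of 50 bases were compared between GENCODE vM1 transcripts.

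Each constant gene, the 5 V rows of highest mean in each class, the leading Ighv and Igkv row of each library, every member called, and the 5 genes closest in pattern were named. Some genes of the lists are not reported here. Members and lists were chosen with earlier results of these data known. Each sample pooled several mice, so p-values measure the spread between pools.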

Additional observations from a re-analysis of the deposited data

Results flagged for a closer look

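Ighv1-39 was singled out because both unstimulated DKO libraries lay above both WT libraries and both stimulated DKO libraries lay below both WT libraries. It had 0 and 0 normalized counts in unstimulated WT, 36.7 and 8.01 in unstimulated DKO, 26.5 and 10.6 in stimulated WT, and 6.35 and 0 in stimulated DKO. The difference between the genotype effects, stimulated minus unstimulated, was -6.93 on the log2 scale, a fitted value that depends on the pseudocount since unstimulated WT had no read. It did not pass the correction in limma (adjusted p = 0.556).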

How the results depend on the processing

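The number of rows called higher in unstimulated DKO, 11, was 6 with a pseudocount of 0.1 and with every gene above 0, 7 by edgeR, 20 by DESeq2, 18 with only the 4 unstimulated libraries, and 0 to 23 with 1 library left out. With DKO library 1 removed from the filter and the fit, an alternative added after seeing the data, it was 4. Ighm in unstimulated cells turned from 0.03 to -0.10 without WT library 4 and to -0.85 without DKO library 1, also when that library left the filter, and leaving out 1 library gave -0.85 to 0.91 (DKO library 2). In stimulated cells, rows called higher went from 0 to 1 by DESeq2, and rows called lower were 0 to 1 with 1 library left out (1 without DKO library 1). The interaction had 0 rows called lower and 2 by DESeq2. The summed 59 rows had a log2 ratio of 3.25 unstimulated (2.10 to 3.98 with 1 library left out) and 0.68 stimulated (-0.91 to 2.20), so the direction of the latter rested on single libraries. The causes of these changes were not tested. Rows under about 3 reads have no measurable fold at this depth.

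With a replicate block in the 4 stimulated libraries, 1 row was called higher and Ighm stayed at -0.67 (limma adjusted p = 0.141). The deviations of same-numbered libraries from their group means correlated with r = 0.17 over 15419 genes, from 2 pairs only, and nothing in the labels says that a number marks a shared source.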

Other observations

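The heavy-chain J segments, which lie between the V segments and Ighm, did not share 1 pattern. Ighj1 had 109 and 73.9 normalized counts in unstimulated WT, 79.7 and 6.68 in unstimulated DKO, 31.2 and 33.4 in stimulated WT, and 21.4 and 5.91 in stimulated DKO. Its WT libraries were thus not low, unlike those of most V rows. Ighj4 had 19.4 and 31.0 in unstimulated WT and 124 and 37.4 in unstimulated DKO. Ighj2 (17.3 and 25.1 in WT, 61.9 and 29.4 in DKO) and Ighj3 (5.40 and 7.39, 55.6 and 18.7) went the way of Ighj4, so Ighj1 alone differed. None was called in unstimulated cells (limma adjusted p = 0.287 for Ighj1, 0.387 for Ighj2, 0.164 for Ighj3 and 0.472 for Ighj4).

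The ratio of summed Ighv rows to summed heavy-chain constant rows, not per length, was 0.0103 and 0.0331 in unstimulated WT and 0.148 and 0.140 in unstimulated DKO. It was 0.0795 and 0.0211 in stimulated WT and 0.146 and 0.153 in stimulated DKO. The 4 WT libraries all lay below the 4 DKO libraries. The constant rows include Ighm, so this ratio also falls where Ighm is high beside the other rows. In stimulated DKO library 2, Ighv1-9 alone took 36.1% of the Ighv reads. For kappa the ratio of Igkv to Igkc varied less, from 0.312 to 0.573. No test was run on these ratios.

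Of the T cell receptor constant genes, Trac (alpha chain) ranged from 3314 to 5340 over the 8 libraries, Trbc1 from 1722 to 4829 and Trbc2 (both beta chain) from 2118 to 6022. None was called in either contrast by limma.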
